A study of Mus musculus with 36 samples.

Results

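Submandibular glands of control mice at postnatal day 90 (P90) were compared with those of control mice at postnatal day 40 (P40). The members were the 12 Drop-seq libraries whose titles gave a control mouse at either stage, 6 at P90 and 6 at P40, of 26 Drop-seq glands and 36 samples in the series. Each library came from the gland of a single animal, and either group held 3 females and 3 males. The paper obtained its control mice from K14-Cre animals mated to carriers of the R26-EYFP reporter, all on a C57BL/6 background. It does not state whether each control animal inherited both alleles. K14-Cre is active in keratin 14-expressing epithelial cells, and without floxed alleles of β-catenin or Bmpr1a it only switches on the reporter. The labels gave the genotype of these mice as wildtype or, in 1 gland, control. Glands were dissociated, live (DAPI-negative) cells were sorted, fixed in methanol and sequenced by Drop-seq, in which droplets pair cells with barcoded beads and each captured mRNA molecule is counted as a unique molecular identifier (UMI).

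The P90 glands were prepared in batches 7, 8 and 9 and the P40 glands in batches 12, 13 and 14, with no batch in common, so stage and batch cannot be told apart in any control comparison given here. Barcodes with at least 100 genes and under 15% of UMIs from mitochondrial genes were kept. Summed UMIs ranged from 1679478 to 2558112 per P90 gland and from 2324335 to 6994504 per P40 gland (exact permutation test, two-sided, p = 0.00649). The median cell held 398 to 528 genes at P90 and 528 to 699.5 at P40 (exact p = 0.00433), and the share of mitochondrial UMIs was 1.64 to 3.72% and 1.07 to 3.65% (exact p = 0.216). The part of this gap in depth in the results was not tested beyond the thinned counts given at the end. No pair of libraries shared more than 1 cell barcode, and Xist and Y-linked transcripts matched the labelled sex in all 12 glands.

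The mouse submandibular gland secretes a watery, protein-rich saliva. Acinar cells make the bulk of it, and intercalated, striated and granular convoluted ducts modify it on its way out. Granular convoluted tubule cells differentiate after puberty, are much more developed in males because they depend on androgens, and store tissue kallikreins, epidermal growth factor (Egf) and renin. Glandular kallikreins are serine proteases encoded by a cluster of near-identical genes on chromosome 7.

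Sequences upstream of the RefSeq start of 4 kallikrein genes are shown because the Klk1b genes moved together between the stages whereas Klk1, their neighbour, did not pass the test. Each window holds the 250 bases before the annotated start on the plus strand of RefSeq (build GRCm38.p6), and capitals mark the letters TTTAAA, a variant of the TATA box. The windows are chr7:44207183-44207432 (Klk1b4), chr7:44216224-44216473 (Klk1b5), chr7:44012428-44012677 (Klk1b26) and chr7:44225110-44225359 (Klk1). GENCODE gene models start earlier for Klk1b5 (position 44215945) and Klk1b26 (position 44012168), so those windows lie inside the longer models.
Klk1b4: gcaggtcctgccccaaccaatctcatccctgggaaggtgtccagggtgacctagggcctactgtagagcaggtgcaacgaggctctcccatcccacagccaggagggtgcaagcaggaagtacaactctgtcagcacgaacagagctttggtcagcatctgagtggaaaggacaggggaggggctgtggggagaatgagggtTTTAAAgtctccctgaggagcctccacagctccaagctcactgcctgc
Klk1b5: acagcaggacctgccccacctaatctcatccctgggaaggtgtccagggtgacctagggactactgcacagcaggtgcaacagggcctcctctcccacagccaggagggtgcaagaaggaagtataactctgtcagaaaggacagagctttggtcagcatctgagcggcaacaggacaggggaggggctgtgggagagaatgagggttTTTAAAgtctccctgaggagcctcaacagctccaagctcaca
Klk1b26: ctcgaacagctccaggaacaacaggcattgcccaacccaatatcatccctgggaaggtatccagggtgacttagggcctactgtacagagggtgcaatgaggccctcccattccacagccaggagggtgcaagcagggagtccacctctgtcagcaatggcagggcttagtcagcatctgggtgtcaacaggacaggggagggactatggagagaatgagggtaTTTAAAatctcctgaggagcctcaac
Klk1: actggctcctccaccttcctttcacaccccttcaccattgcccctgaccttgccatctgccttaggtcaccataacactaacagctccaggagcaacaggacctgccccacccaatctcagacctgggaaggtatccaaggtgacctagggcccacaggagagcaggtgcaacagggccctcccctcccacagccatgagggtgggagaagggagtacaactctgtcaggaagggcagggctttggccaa
Among the 13 Klk1b windows, 12 held TTTAAA on either strand, against 12.1% of 32851 mouse promoter windows of the same length. The Klk1 window held none, which says only that these letters are not within it. A run of 16 bases that Klk1 and Klk1b4 share, agtacaactctgtcag, starts 132 bases before the annotated start of Klk1b4 and 37 bases before that of Klk1, so the Klk1 window ends 95 bases earlier in the shared sequence. The androgen receptor half-site letters AGAACA or their reverse complement TGTTCT were found in 2 of the 13 Klk1b windows (Klk1b3 and Klk1b24) and in 16.1% of all windows. Pairwise identity to the Klk1b4 window was 53.2% to 87.2% for the other Klk1b windows and 48.5% for the Klk1 window. These matches are descriptions of sequence and were not tested for binding.

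Whole-gland differences were tested with edgeR's quasi-likelihood test on UMIs summed per gland, with sex as a covariate and Benjamini-Hochberg adjustment over all 9099 genes tested, and a gene was called at an adjusted p under 0.05. Levels are given as CPM, UMIs of a gene per 1000000 UMIs of the library, scaled by trimmed mean of M-values (TMM). Of 8313 genes with standard names other than pseudogene symbols, 185 (2.23%) were higher and 145 (1.74%) lower at P90. In edgeR with library totals in place of TMM the counts were 423 and 14, with the median of all genes at 0.35 on the log2 scale. Without P40 replicate 1 they were 296 and 317, without P40 replicate 3 they were 113 and 75, and without batch 14 they were 52 and 29. In 48 of the 8313 (0.577%) all 6 P90 glands lay above every P40 gland, and in 50 (0.601%) all 6 lay below. Nothing in the labels says whether animals of a group were littermates, and the p-values measure the spread between these glands.

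Granular duct products had the largest share of called members of the gene lists examined in the whole gland. Of 18 listed genes 16 were tested and 15 were higher at P90, where 2.23% of other standard names were. The median log2 fold change was 2.11 over those tested against -0.01 over all genes tested. The higher members were Egf, Crisp3 and 13 glandular kallikreins, and renin (Ren1) was the member that did not pass. Without sex in the model 1 of the 16 passed, and with UMIs summed per batch (3 batches against 3) 0 passed. The summed level of the list was 6785, 10096 and 15374 CPM in the 3 P90 females against 2049.6 to 2610.4 CPM in the P40 females. In the males it was 68273, 156857 and 253601 CPM at P90 against 21517 to 49947 CPM at P40. The stages did not overlap within either sex, whereas P90 females lay below P40 males. In a whole gland, fewer cells of a type and less RNA per cell cannot be told apart.

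Klk1b4, a kallikrein of the granules, was measured at 49.7 to 1840.3 (median 462) CPM at P40 and at 382 to 10628 (median 2155) CPM at P90. By sex it was 49.7 to 115 and 382 to 893 CPM in females and 808 to 1840.3 and 3416 to 10628 CPM in males, so that the stages were apart within each sex. It had the smallest p of the list (log2 fold change 2.68, SE 0.36, adjusted p = 0.000231). Klk1b5, next to it on chromosome 7, was measured at 209 to 1821 (median 670.3) CPM at P40 and 1132 to 9381 (median 3565) CPM at P90 (log2 fold change 2.65, SE 0.41, adjusted p = 0.000582), and 5 of 6 P90 glands lay above every P40 gland. Klk1b8 (log2 fold change 2.64, SE 0.43, adjusted p = 0.000814) and Klk1b22 (log2 fold change 2.05, SE 0.34, adjusted p = 0.00105), an Egf-binding kallikrein, rose as well. Klk1b26, the most abundant of these kallikreins at P90, reached 19575 to 72952 CPM in P90 males against 6626 to 10948 CPM in P40 males (log2 fold change 2.79, SE 0.59, adjusted p = 0.00507). Kallikrein transcripts are near-identical, and reads that could stem from several members may have been assigned unevenly by the authors' counting.

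Egf, the growth factor of the granules, was measured at 42.6 to 81.6 CPM in P40 females and 91.8 to 139 CPM in P90 females, and at 711 to 1743 and 2097 to 6051 CPM in males. Its fold change over both sexes was smaller than those of the kallikreins (log2 fold change 1.26, SE 0.31, adjusted p = 0.0163). Crisp3, a cysteine-rich secretory protein, rose as well (log2 fold change 1.46, SE 0.43, adjusted p = 0.0434). Crisp1, a related protein outside the list, rose by a log2 fold change of 2.72 (SE 0.423, adjusted p = 0.00064), with 1.44 to 194 (median 34.4) CPM at P40 and 17.6 to 1212 (median 173) CPM at P90. Ren1 ranged from 0 to 5975 CPM at P40 and from 125 to 11644 CPM at P90 (log2 fold change 2.52, SE 1.09, adjusted p = 0.182). Klk1, the kallikrein of striated duct cells, was measured at 12875 to 22334 CPM in P40 females, 17845 to 42312 CPM in P90 females, 9102 to 16338 CPM in P40 males and 5268 to 6984 CPM in P90 males (log2 fold change -0.18, SE 0.41, adjusted p = 0.853). All P90 males lay below all P40 males for Klk1, and the difference did not pass the test in either sex (adjusted p = 0.457 in females and 0.202 in males).

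**Figure D1:**
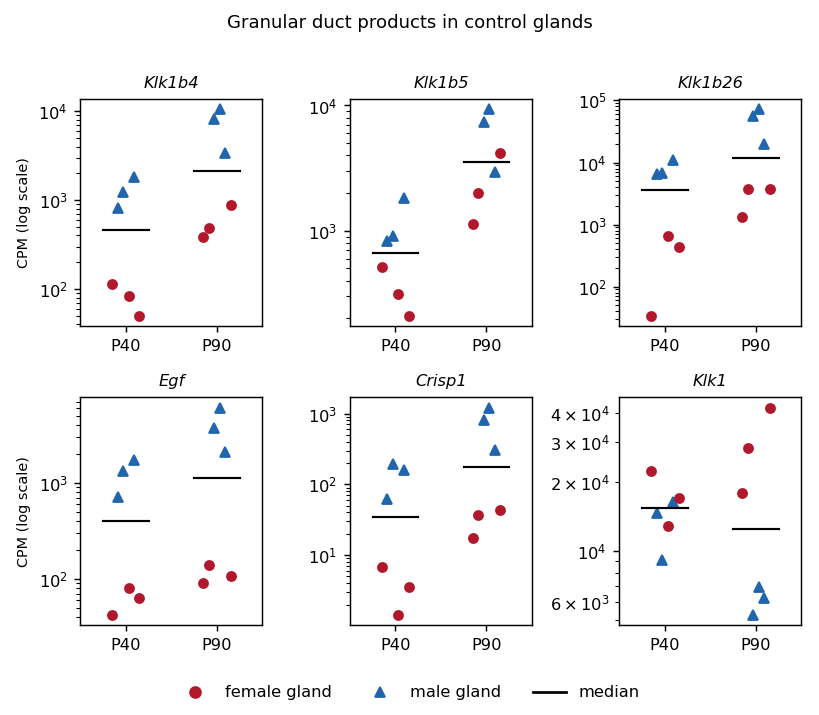
Levels of 6 granular or striated duct transcripts in the 12 control glands. The y axis is CPM (TMM-scaled, log scale), each point is a gland (circles female, triangles male) and the black line is the median of the 6 glands of a stage. For Klk1b4, Klk1b5, Klk1b26, Egf and Crisp1 the P90 points of a sex lie above the P40 points of the same sex, whereas for Klk1 the P90 males lie lowest.

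When each sex was tested on its own, 7 of the 16 granular duct products passed in females and 9 in males. These smaller groups gave unsteady counts. When any gland was left out, 16 to 397 standard names were called in females, lowest without P40 replicate 6, and 5 to 233 in males, lowest without P40 replicate 3, and both counts were highest without P40 replicate 1. Over other standard names 33 (0.375%) were higher and 32 (0.364%) lower in females, and 81 (0.92%) were higher and 14 (0.159%) lower in males. Egf had a log2 fold change of 1.64 in males (adjusted p = 0.0491) and 0.83 in females (adjusted p = 0.375), both by edgeR's quasi-likelihood test. The difference between the sexes in the stage effect was tested itself, as a sex-by-stage term. It called 0 of 8964 standard names with edgeR (304 at an unadjusted p under 0.05) and 0 with DESeq2, and 54 (0.302%) in edgeR without the filter on low counts. A difference in the stage effect between males and females was therefore not shown for Egf (log2 difference, male minus female, 0.81, adjusted p = 1).

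The same genes were then examined within cell types. Cells of the 12 glands fell into 18 clusters (clone names, Egf, Smgc, Dcpp1 and sex-linked genes were kept out of the clustering) and were named "-like" where at least 3 markers of a list passed. Ductal Klk1+-like cells, the striated duct class, were present in all 12 glands (54036 to 314030 UMIs per gland), and 37 of 2358 other standard names were higher (1.57%) and 6 lower (0.254%) at P90 in them. Crisp1 rose in these cells, with 8.82 to 75.1 (median 56.2) CPM at P40 and 252 to 503 (median 384) CPM at P90 (log2 fold change 2.85, SE 0.24, adjusted p = 5.21e-07), with all 6 P90 glands above every P40 gland. Klk1b5 was measured at 3177 to 9823 (median 5629.8) CPM and 14795 to 37479.6 (median 17808) CPM (log2 fold change 1.87, SE 0.32, adjusted p = 0.000722), again with no overlap. Klk1b4 was measured at 675 to 5513 (median 2421) CPM and 3575 to 11035 (median 7581) CPM (log2 fold change 1.82, SE 0.31, adjusted p = 0.000722), where 5 of 6 P90 glands lay above every P40 gland. With Klk1b8 and Klk1b24, 4 of 16 granular duct products were called in this class.

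**Figure D2:**
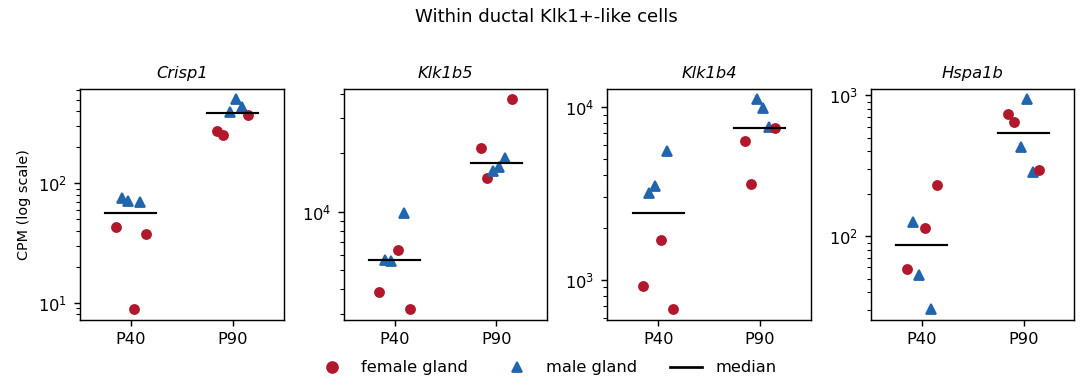
Levels of 4 transcripts in UMIs summed over the ductal Klk1+-like cells of each control gland. The y axis is CPM (TMM-scaled, log scale), points are glands (circles female, triangles male) and lines are medians. Crisp1, Klk1b5 and Hspa1b show all 6 P90 glands above the 6 P40 glands.

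Ductal Egf+-like cells, the granular tubule class, held 0 to 7.58% of cells at P40 and 0.101 to 33.8% at P90, with the highest shares in males. Their size is set by the genes under test, so the shares were not compared between stages. When both duct classes were summed, which keeps a cell in the sum whichever class it fell into, 11 of the 16 granular duct products were higher, where 2.54% of other standard names were. Klk1b4 (log2 fold change 2.05, SE 0.34, adjusted p = 0.000675) and Klk1b5 (log2 fold change 2.02, SE 0.34, adjusted p = 0.000632) passed, and Crisp1 passed as well (log2 fold change 2.02, SE 0.39, adjusted p = 0.00193). Klk1b26 (log2 fold change 1.86, SE 0.56, adjusted p = 0.0501), Egf (log2 fold change 0.83, SE 0.36, adjusted p = 0.213) and Klk1 (log2 fold change -0.65, SE 0.48, adjusted p = 0.533) did not. Kallikrein transcripts were also found at low levels in acinar-like cells, where 12 of 16 granular duct products were called (3.63% of other standard names), with Klk1b4 at 1.65 to 35.5 (median 15.9) CPM and 6.37 to 268 (median 47.9) CPM (log2 fold change 2.46, SE 0.45, adjusted p = 0.000804). Free RNA from duct cells was not measured apart, and its part in the acinar-like and in the ductal Klk1+-like values was not tested.

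Of 16 listed acinar secretory proteins 10 were tested, and 1 was higher and 1 lower at P90, where 2.23% and 1.74% of other standard names were. Mucl1, a small mucin-like protein, rose, with 298 to 826 (median 558) CPM at P40 and 771 to 3205 (median 2195) CPM at P90 (log2 fold change 1.99, SE 0.33, adjusted p = 0.00099), with 5 of 6 P90 glands above every P40 gland. Tcn2, transcobalamin 2, fell, with 82.5 to 294 (median 208) CPM at P40 and 56.5 to 147 (median 96.8) CPM at P90 (log2 fold change -1.09, SE 0.26, adjusted p = 0.0117), and 3 P90 glands lay below every P40 gland. Among secretoglobins and exocrine peptides 1 of 12 tested was called, Scgb2b2 (log2 fold change 1.24, SE 0.36, adjusted p = 0.0407). Scgb2b19, a secretoglobin outside that list, was measured at 0.227 to 2.41 (median 0.725) CPM and 2.61 to 29.4 (median 10.1) CPM with no overlap (log2 fold change 3.63, SE 0.52, adjusted p = 0.00039). Of 12 tested genes of acinar identity 1 was lower, the Ets factor Spdef (log2 fold change -0.80, SE 0.23, adjusted p = 0.0374), while Xbp1, the secretory regulator, was measured at 106 to 381 (median 298) CPM and 82.8 to 219 (median 149) CPM (log2 fold change -0.88, SE 0.29, adjusted p = 0.0728).

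Acinar-like cells, the deepest class (842262 to 5276752 UMIs per gland), gave the most calls within a cell type. Of 4466 other standard names 162 were higher (3.63%) and 83 lower (1.86%) at P90. Mucl1 rose within these cells (log2 fold change 2.12, SE 0.38, adjusted p = 0.000649), and Scgb2b19 did too (log2 fold change 3.96, SE 0.51, adjusted p = 3.56e-05). Pced1a, an esterase family gene of little known function, was measured at 0.646 to 2.48 (median 1.63) CPM and 2.19 to 160.4 (median 22.6) CPM (log2 fold change 4.34, SE 0.58, adjusted p = 4.85e-05). In the whole gland its level was 40.2 to 76.1 CPM in the glands of batch 7, 12.8 to 16.2 CPM in batch 9 and 1.31 to 4.64 CPM in batch 8, the last of which overlapped with 1.64 to 3.47 CPM at P40.

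Several genes were lower at P90 in acinar-like cells with little overlap between the stages. Nfkbia, the inhibitor of NF-κB, was measured at 78.4 to 140.5 (median 96.4) CPM at P40 and 42.8 to 61.3 (median 54.9) CPM at P90 (log2 fold change -0.97, SE 0.14, adjusted p = 7.80e-05), with all 6 P90 glands below every P40 gland. Cep290, a centrosomal protein, fell, with 6.76 to 12.4 (median 10.3) CPM at P40 and 2.52 to 4.67 (median 3.52) CPM at P90 without overlap (log2 fold change -1.42, SE 0.26, adjusted p = 0.000885). Foxo3, a forkhead factor of the insulin pathway, was measured at 14 to 22.8 (median 16.3) CPM and 1.74 to 14 (median 7.09) CPM (log2 fold change -1.22, SE 0.30, adjusted p = 0.00998). Azin1, the antizyme inhibitor of polyamine synthesis, was measured at 66.9 to 136 (median 105) CPM and 42.8 to 74.3 (median 46.8) CPM (log2 fold change -0.98, SE 0.17, adjusted p = 0.000472), with 5 P90 glands below every P40 gland. Pvr, an adhesion receptor (-1.66, adjusted p = 0.00235), Pdk4, which restrains pyruvate oxidation (-1.42, adjusted p = 0.00857), Pik3r1, a PI3-kinase subunit (-0.98, adjusted p = 0.00556), and the kinase gene Pim3 (-1.37, adjusted p = 0.00703) were also lower, given as log2 fold changes from edgeR's quasi-likelihood test.

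Immediate early genes, which respond within minutes to hours to stress or dissociation, had 8 members lower and 3 higher of 32 tested in acinar-like cells. Of other standard names 1.86% were lower and 3.63% higher in acinar-like cells. The lower immediate early genes were Egr1, Atf3, Btg2, Zfp36, Junb, Cebpd, Nfkbia and Socs3, with Cebpd at a log2 fold change of -1.26 (adjusted p = 0.0105, edgeR's quasi-likelihood test) and Socs3 at -0.94 (adjusted p = 0.0384, same test). The higher members were Jund, Btg1 and Cebpb. Oxidative phosphorylation genes were called higher in 11 of 75, among them Atp5g2, Atp5l, Ndufa5 and Cycs, and lower in none of the 75, with a median log2 fold change of 0.11 against -0.04 over all genes tested in these cells. Of the acinar-like calls followed across settings, 17 were tested again without cluster 3, an acinar-like cluster with 945 of its 1017 cells at P40, and all 17 passed. Other acinar-like calls named here, such as Egr1, Atp5l and Igkc, were not among those followed.

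**Figure D3:**
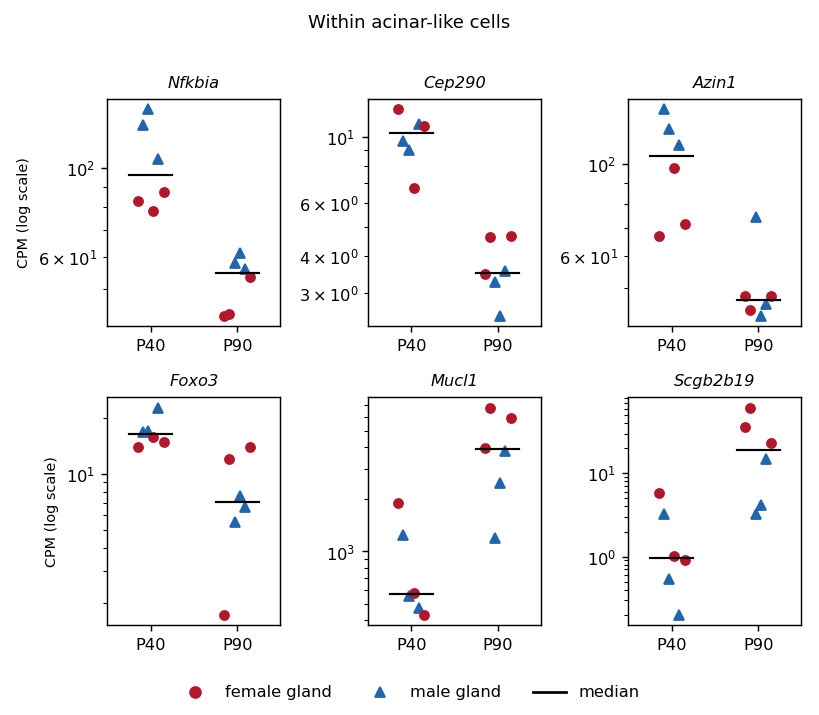
Levels of 6 transcripts in UMIs summed over the acinar-like cells of each control gland, with CPM (TMM-scaled, log scale) on the y axis. Points are glands (circles female, triangles male) and lines are medians. Nfkbia, Cep290 and Foxo3 show all 6 P90 glands at or below the lowest P40 gland, whereas Mucl1 and Scgb2b19 show higher medians at P90.

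Products of mucous and demilune cells were high in 4 of 6 P40 glands and 1 of 6 P90 glands. Of 7 listed genes 5 were tested and 1 was called, Cst10, a cystatin, which was 0 to 24.1 (median 12.3) CPM at P40 and 0 to 1.96 (median 0.155) CPM at P90 (log2 fold change -4.79, SE 1.24, adjusted p = 0.0201). The summed list stood at 129900 CPM in P90 replicate 3 and at 170 to 3636 CPM in the other P90 glands. At P40 it was 118383 to 318539 CPM in replicates 2, 3, 4 and 6 and 30.6 to 40.6 CPM in replicates 1 and 5. Dcpp1, a demilune cell protein, did not pass (log2 fold change -3.12, SE 1.98, adjusted p = 0.383), nor did Dcpp3 (log2 fold change -4.93, SE 2.34, adjusted p = 0.229) or the mucin Muc19 (log2 fold change -2.70, SE 1.48, adjusted p = 0.307), a product of sublingual mucous cells. Among early postnatal products 0 of 4 tested passed, with Bpifa2 at 0.227 to 24393 CPM and 0.579 to 5745 CPM (log2 fold change -4.24, SE 2.59, adjusted p = 0.361) and Smgc, a submandibular gland protein C gene, at 0.454 to 6984 CPM and 0 to 27999 CPM (log2 fold change 0.90, SE 1.48, adjusted p = 0.78). Whether sublingual tissue was dissected with some glands was not tested.

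Transcripts of those secreted products were also found in cells of other types. Dcpp3 was called lower at P90 in 5 of 6 cell types, with 0 to 1284 CPM in acinar-like cells at P40, 0 to 72196 CPM in immune-like cells and 0 to 14894 CPM in basal-like cells, and with 0 to 337 CPM at P90 over the 5 types that were called. Dcpp1 followed in immune-like cells (log2 fold change -7.10, SE 1.75, adjusted p = 0.0289) and Bpifa2 in ductal progenitor-like cells (log2 fold change -6.64, SE 1.67, adjusted p = 0.0336). These values varied with the level of the same gene in the gland, and the part of free RNA in them was not tested. P90 replicate 3, the P90 gland with the highest summed level of mucous and demilune products, was not in the immune-like and basal-like sums. Immune-like cells were 1.40% and basal-like cells 0.623% of its 642 cells, below the limit of 10 cells. The calls in these 2 types were thus made without that gland. Mup5, a major urinary protein, was the single standard-named gene called in endothelial-like cells, at 367 to 2711 CPM at P40 and 0 to 94.2 CPM at P90 (log2 fold change -4.99, SE 0.73, adjusted p = 0.00884, 0.141% of those tested). It was also a leading gene of an acinar-like cluster, and the part of free RNA in its endothelial-like values was not tested. Endothelial-like cells were tested in 4 glands per stage (6 female and 2 male), with as few as 13467 UMIs in a gland.

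A pair of fibrillar collagen genes was lower at P90. Of 18 listed collagen chains 7 were tested and 2 were called lower, where 1.74% of other standard names were. Col3a1, the chain of type III collagen, was measured at 43.3, 50.8, 14.9, 14.7, 16.3 and 9.93 CPM in P40 replicates 1 to 6 and at 1.55, 1.26, 6.53, 9.85, 2.36 and 3.2 CPM in P90 replicates 1 to 6. All 6 P90 glands lay below every P40 gland, narrowly in P90 replicate 4 (log2 fold change -2.75, SE 0.52, adjusted p = 0.00228). Col1a2 fell, with 9.93 to 42.6 (median 16.8) CPM at P40 and 2.52 to 11.7 (median 5.16) CPM at P90 (log2 fold change -1.85, SE 0.33, adjusted p = 0.00182), and Col1a1, its partner chain, was measured at 4.38 to 12.3 (median 6.77) CPM and 0 to 7.83 (median 2.25) CPM (log2 fold change -1.50, SE 0.55, adjusted p = 0.11). Of 18 tested matrix and processing genes 1 was called, Olfml3, a secreted glycoprotein (log2 fold change -2.23, SE 0.59, adjusted p = 0.023), and Sparc, a matricellular protein, was measured at 27.5 to 171 CPM and 6.53 to 52.5 CPM (log2 fold change -1.41, SE 0.55, adjusted p = 0.139). Fibroblast-like cells were too few for a test within the type, at 0.262 to 1.8% of cells at P40 and 0.288 to 0.779% at P90, and their share was not compared because collagens define them.

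Heat shock genes, which encode chaperones induced by heat and by tissue handling, had 5 of 12 members higher and 0 lower. Of other standard names 2.23% were higher and 1.74% lower. Hspa1b, inducible Hsp70, was measured at 29.9, 40.4, 18.6, 41.5, 35.8 and 38.9 CPM in P40 replicates 1 to 6 and at 256, 304, 117, 341, 118 and 133 CPM in P90 replicates 1 to 6. No P90 gland overlapped with P40 (log2 fold change 2.63, SE 0.31, adjusted p = 0.000108). Dnaja1, an Hsp40 co-chaperone (log2 fold change 1.14, SE 0.28, adjusted p = 0.0136), the small heat shock protein Hspb1 (log2 fold change 1.31, SE 0.37, adjusted p = 0.0339) and the mitochondrial Hspe1 (log2 fold change 0.73, SE 0.21, adjusted p = 0.0401) were higher too, with Hsph1 as the fifth. Without P90 replicate 1, P90 replicate 4, P40 replicate 3, P40 replicate 5 or P40 replicate 6, 2 of the 12 passed, and 3 passed without P90 replicate 6 or without P40 replicate 2. Hspa1b was also higher in acinar-like (2.45), ductal Klk1+-like (2.47), ductal progenitor-like (2.43) and immune-like cells (3.05), given as log2 fold changes.

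Of 37 tested immediate early genes 3 were higher and 1 lower in the whole gland, where 2.23% and 1.74% of other standard names were. For Cebpb and Jund the P90 glands divided by batch. Cebpb, a leucine zipper factor of stress and inflammation, was measured at 92.5 to 122 CPM in batch 7, 118 CPM in both glands of batch 8 and 4.8 to 6.7 CPM in batch 9, against 3.18 to 7.92 CPM in the P40 glands. Its called difference (log2 fold change 3.94, SE 0.71, adjusted p = 0.0017) thus lay in 4 of 6 P90 glands, and the glands of batch 9 overlapped with P40. Jund, an AP-1 factor, stood at 228 to 356, 497 to 619 and 48.9 to 70.1 CPM in batches 7, 8 and 9 and at 54.2 to 79.4 CPM at P40 (log2 fold change 2.18, SE 0.50, adjusted p = 0.00984). Klf2 was the other higher member (log2 fold change 1.97, SE 0.59, adjusted p = 0.0438), with 34.5 to 62.2, 8.48 to 38.8 and 8.67 to 10.4 CPM in batches 7, 8 and 9 and 1.82 to 13.9 CPM at P40, and Ier3 was lower (log2 fold change -0.94, SE 0.22, adjusted p = 0.0123).

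**Figure D4:**
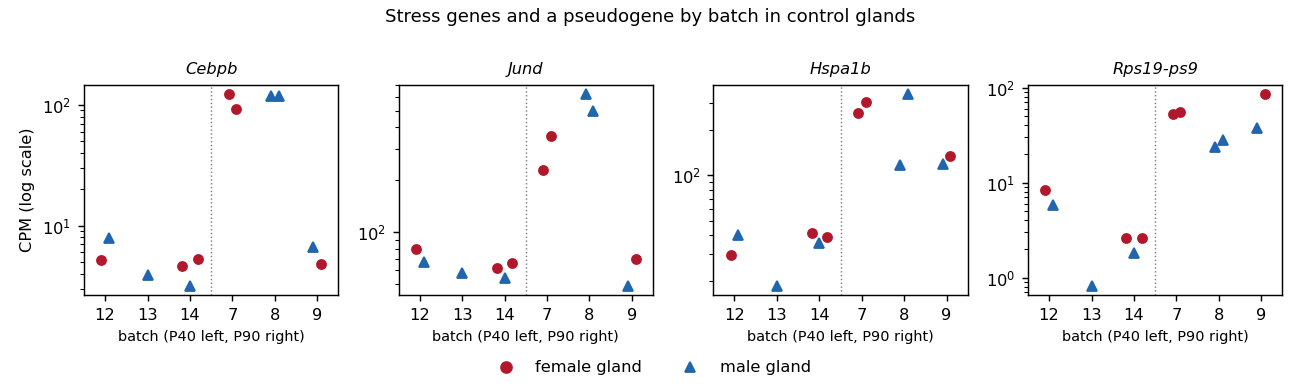
Levels of Cebpb, Jund, Hspa1b and the pseudogene Rps19-ps9 in the 12 control glands by preparation batch, with P40 batches left and P90 batches right of the dotted line. The y axis is CPM (TMM-scaled, log scale) and points are glands (circles female, triangles male). Cebpb and Jund are high in batches 7 and 8 and at the P40 level in batch 9, whereas Hspa1b and Rps19-ps9 are above P40 in all 3 P90 batches.

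MHC class I genes were among those higher at P90, where 2.23% of other standard names were higher. B2m, the invariant light chain, rose, with 190.4 to 435 (median 269.6) CPM at P40 and 395 to 892 (median 624) CPM at P90 (log2 fold change 1.08, SE 0.24, adjusted p = 0.00713). The heavy chain genes H2-Q7 (log2 fold change 1.68, SE 0.39, adjusted p = 0.0101) and H2-Q4 (log2 fold change 0.87, SE 0.24, adjusted p = 0.0302) completed the 3 called of 25 tested MHC class I and interferon genes, with all 6 P90 glands above every P40 gland for both. H2-T23 was measured at 33.6 to 63.2 CPM and 63.8 to 79.5 CPM, which do not overlap, and did not pass (log2 fold change 0.51, SE 0.16, adjusted p = 0.0527). Within acinar-like cells B2m did not pass either (log2 fold change 0.97, SE 0.32, adjusted p = 0.0615). Of 7 tested MHC class II genes none of the 7 passed by edgeR's quasi-likelihood test in the whole gland and 3 had an unadjusted p under 0.05, with Cd74 at 45.8 to 329 CPM and 63.3 to 746 CPM (log2 fold change 1.40, SE 0.62, adjusted p = 0.19).

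Of 6 tested immunoglobulin and plasma cell genes none of the 6 passed by edgeR's quasi-likelihood test in the whole gland, and 2 had an unadjusted p under 0.05. Jchain, the joining chain of secreted IgA, ranged from 0 to 139.6 CPM at P40 and from 0 to 289 CPM at P90 (log2 fold change 3.40, SE 1.46, adjusted p = 0.179), and Igkc from 1.02 to 324 CPM and 1.31 to 409 CPM (log2 fold change 2.98, SE 1.39, adjusted p = 0.221). Jchain was called higher in males (log2 fold change 7.89, adjusted p = 0.0366, edgeR's quasi-likelihood test), at 0.204 to 0.819 CPM in P40 males and 0 to 289 CPM in P90 males. Within acinar-like cells Igkc was higher at P90, with 0.266 to 2.72 CPM and 0.922 to 18.7 CPM (log2 fold change 2.51, SE 0.61, adjusted p = 0.00951), and the part of free RNA in that value was not tested. Slpi, an antiprotease, was at most 1.37 CPM at P40 and 0 to 10.1 (median 7.12) CPM at P90 (log2 fold change 4.04, SE 0.76, adjusted p = 0.00239). Immune-like cells were tested in 11 glands, and 7 of 893 other standard names were higher (0.784%) and 10 lower (1.12%).

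Adhesion, clock and metabolic genes also passed. Ceacam2, a cell adhesion gene, was measured at 0.273 to 1.03 (median 0.871) CPM and 1.96 to 31.3 (median 8.57) CPM without overlap (log2 fold change 3.77, SE 0.56, adjusted p = 0.000476), and its neighbour Ceacam1 at 64.3 to 115 (median 98.3) CPM and 19.8 to 92 (median 38) CPM in the other direction (log2 fold change -1.19, SE 0.29, adjusted p = 0.0129). Both genes are close in sequence, so reads could be split between them unevenly. Among 9 tested clock genes Dbp (log2 fold change 1.81, SE 0.55, adjusted p = 0.0488) and Tef (log2 fold change 1.10, SE 0.26, adjusted p = 0.0125), both PAR-domain factors of circadian output, were higher, where 2.23% of other standard names were. The labels used here give no time of day. Sult1e1, an estrogen sulfotransferase, was called (log2 fold change 2.30, SE 0.64, adjusted p = 0.0317) on the glands of batch 8, both male, at 86.9 to 112 CPM, and without that batch the log2 fold change was -0.78. Ces1d, a carboxylesterase, stood at 7.03 to 27.5 CPM and 22.6 to 128 CPM (log2 fold change 1.51, SE 0.38, adjusted p = 0.0175).

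Fgg, a fibrinogen chain, was measured at 0 to 5.26 (median 2.67) CPM and 0 to 106 (median 17.7) CPM (log2 fold change 3.54, SE 0.62, adjusted p = 0.00137), with a log2 fold change of 4.10 in females and 0.93 in males. It was also a leading gene of an unnamed cluster led by Smgc. That cluster held 15.1, 8.97 and 11.6% of cells in the P90 females and at most 0.156% in the P90 males. At P40 it held 0 to 5.61%. The part of this cluster in the Fgg difference was not tested. Of 75 tested respiratory chain genes 1 was higher, Atp5g2 (log2 fold change 1.45, SE 0.27, adjusted p = 0.00207), and 1 lower, Ndufa9 (log2 fold change -0.60, SE 0.17, adjusted p = 0.0355), shares no larger than the 2.23% and 1.74% of other standard names. Of 9 tested mitochondrial transcripts mt-Co1 was higher (log2 fold change 1.06, SE 0.32, adjusted p = 0.0458). Lower genes with the largest fold changes included Cgref1 (log2 fold change -2.23, SE 0.62, adjusted p = 0.0323), the fucosyltransferase Fut9 (log2 fold change -1.81, SE 0.52, adjusted p = 0.0361) and Paqr4 (log2 fold change -1.72, SE 0.34, adjusted p = 0.00311). Cgref1 was also a leading gene of an unnamed cluster led by Muc19, with 176 cells at P40 and 21 at P90, and the part of that cluster was not tested. St3gal1, a sialyltransferase (-1.67), Slc26a6, an anion exchanger of duct cells (-1.60), Aldh1a7, an aldehyde dehydrogenase (-1.53), and Klf9, a hormone-responsive zinc finger factor (-0.60), were lower by the log2 fold changes given. For Paqr4, Klf9 and Ndufa9 all 6 P90 glands lay below every P40 gland. None of 12 tested proliferation genes, 24 unfolded protein response genes or 9 Wnt and Bmp pathway genes passed edgeR's quasi-likelihood test, with 2 in each list at an unadjusted p under 0.05.

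Clone and predicted-gene names and pseudogene symbols were mostly higher at P90, unlike other names. Of 649 clone and predicted-gene names 536 (82.6%) were higher and 1 (0.154%) lower at P90, and of 137 pseudogene symbols (-ps) 121 (88.3%) were higher and 0 lower, with median log2 fold changes of 2.01 and 1.98 against -0.05 for the 8313 other standard names. Clone and predicted-gene names held 0.293 to 1.21% of UMIs per P40 gland and 1.03 to 3.52% per P90 gland (exact p = 0.00649), with 4 P90 glands above every P40 gland. Rps19-ps9 was measured at 0.818 to 8.25 (median 2.61) CPM and 23.5 to 84.5 (median 45) CPM without overlap (log2 fold change 3.68, SE 0.38, adjusted p = 5.37e-05), and its parent Rps19, a ribosomal protein gene, at 292 to 540.0 CPM and 399 to 600.2 CPM (log2 fold change 0.34, SE 0.17, adjusted p = 0.275). Rpl35-ps1 (log2 fold change 3.48, SE 0.28, adjusted p = 2.36e-05) had a parent, Rpl35, that was itself higher (log2 fold change 1.29, SE 0.26, adjusted p = 0.00379). Of 74 tested parent genes of these pseudogenes 8 were higher and 0 lower, with a median log2 fold change of 0.13. Of 82 ribosomal protein genes likewise 8 were higher and 0 lower, with a median of 0.07. A larger share of both groups was higher than the 2.23% of other standard names, of which 1.74% were lower. The clone Gm14989 had the largest fold change of the called predicted genes (log2 fold change 5.09, SE 0.48, adjusted p = 3.40e-05).

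Some of the other standard names carry an annotation of the same kind. By GENCODE vM21, 8 of 18 annotated pseudogenes among them (44.4%) and 5 of 18 short noncoding genes (27.8%) were higher, against 161 of 7894 protein-coding genes (2.04%). These groups were formed after the values were seen. Hist1h2al, a histone symbol annotated as a processed pseudogene, was measured at 0.584 to 3.09 (median 2.08) CPM and 14.4 to 37.6 (median 20.4) CPM without overlap (log2 fold change 3.57, SE 0.36, adjusted p = 4.96e-05), and Mir692-1, a gene model named for a microRNA, at 0.577 to 10.3 (median 2.44) CPM and 25 to 71.1 (median 52.5) CPM (log2 fold change 3.76, SE 0.47, adjusted p = 0.000153). Mir692-1 was higher in ductal Klk1+-like (4.18), ductal progenitor-like (3.84) and immune-like cells (3.07), given as log2 fold changes. Rps19-ps9 was higher in ductal Klk1+-like (3.27), ductal progenitor-like (3.37) and basal-like cells (2.71). Over the 6 cell types, 26 other standard names, 26 pseudogene symbols and 78 clone or predicted names were higher in at least 2 types. The kinds differ in size, with 4466, 71 and 276 names tested in acinar-like cells in that order, so these counts are not shares. In ductal progenitor-like cells 7 of 1331 other standard names were higher (0.526%) and 5 lower (0.376%). In basal-like cells edgeR's quasi-likelihood test called 0 of 1081 higher and 5 lower (0.463%), with 104 at an unadjusted p under 0.05 in either direction. Basal-like cells were tested in 4 glands per stage (6 female and 2 male), with as few as 13149 UMIs in a gland.

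**Figure D5:**
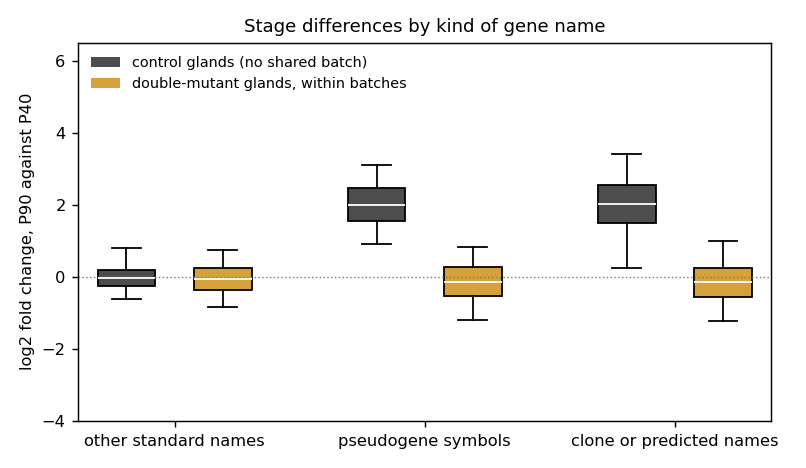
Log2 fold changes of P90 against P40 for the genes tested in control glands, by kind of name, in the control glands (dark) and in 10 double-mutant glands of batches 11 to 14 with batch in the model (light). Boxes give the quartiles and median, whiskers the 5th and 95th percentiles. Pseudogene symbols and clone or predicted names center near 2 in control glands and near 0 in double-mutant glands, while other standard names center near 0 in both.

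Double-mutant glands allowed the stages to be compared within batches. These mice carried K14-Cre with a stabilized β-catenin allele and a deletion of Bmpr1a, and 9 of their glands, 6 at P40 and 3 at P90, came from batches 11 to 13, which hold both stages. A P40 gland of batch 14 was in the fit as well, where its own batch term takes it up. With batch and sex in the model 0 of 12364 standard names were called by edgeR's quasi-likelihood test (0%, 335 at an unadjusted p under 0.05), 50 (0.273%) were called by DESeq2 and 35 (0.191%) by edgeR without the filter on low counts. Without the gland of batch 14 edgeR called 0 of 11326 (299 at an unadjusted p under 0.05). Of the 10 libraries 2, both of batch 11, went against their labelled sex, a P40 gland labelled male with Xist at 591 UMIs and a P90 gland labelled female with 194 Y-linked UMIs. They stand at opposite stages, so whether their stage labels hold was not tested. Without both of them 2 batches with 3 P40 and 2 P90 glands set the stage effect, and edgeR called 0 of 12270 (74 at an unadjusted p under 0.05). The control and double-mutant fits share no library, and tumor tissue of the latter limits the comparison.

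The median log2 fold change in those double-mutant glands was -0.11 for the 508 tested clone and predicted-gene names that were higher in control glands, -0.14 for 117 pseudogene symbols, -0.20 for 178 other standard names that were higher and -0.07 for 145 that were lower, beside -0.06 over other standard names tested in both. Without the 2 libraries against their sex labels the medians were -0.07, -0.01, 0.03 and 0.19 in that order, beside 0.06. Klk1b4 had a log2 fold change of -0.66 (SE 1.74) there, Mucl1 -0.86 (SE 0.90), Col3a1 -0.16 (SE 0.44), Hspa1b 0.43 (SE 0.47), Cebpb 2.98 (SE 1.19) and Egf 0.69 (SE 1.22), none of them called. The lack of a call in this fit does not show that the stages were alike. Without the same 2 libraries the values were 0.25 (Klk1b4, SE 1.69), 0.14 (Mucl1, SE 0.77), 0.22 (Col3a1, SE 0.63), -0.16 (Hspa1b, SE 0.65), 0.42 (Cebpb, SE 1.48) and 0.78 (Egf, SE 1.46), so that 4 of the 6 changed sign.

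With all 26 glands on 1 scale, Hist1h2al stood at 0.755 to 3.89 CPM in control P40 glands and 18.1 to 47 CPM in control P90 glands. Double-mutant P90 glands of batches 6 to 9 held 18.4 to 57.1 CPM, whereas double-mutant P90 glands of batches 11 to 13 held 2.59 to 4.39 CPM and double-mutant P40 glands 1.77 to 6.48 CPM. The level of Hist1h2al was thus high in every gland of batches 6 to 9, all at P90, and low in every gland of batches 11 to 14, at both stages. Rps19-ps9 stood at 0.567 to 281 CPM in double-mutant P90 glands of batches 6 to 9 and at 2.76 to 11.4 CPM in those of batches 11 to 13, where the first range spans the others. Other such transcripts did not follow Hist1h2al in the gland of batch 6. It held Rps19-ps9 at 0.567 CPM, Rpl35-ps1 at 1.13 CPM, Mir692-1 at 4.54 CPM and Gm14989 at 0.284 CPM, each within or below the range of the control P40 glands. Cebpb was 31.1 to 311 CPM and 7.5 to 260.2 CPM in the same 2 sets and 3.53 to 156 CPM in the double-mutant P40 glands, and varied within each. Without the 2 libraries against their sex labels Cebpb was 7.5 to 138 CPM in the P90 glands of batches 11 to 13, and Hist1h2al 2.59 to 3.16 CPM. Klk1b4 was 12.6 to 1723 CPM and 54.5 to 156 CPM in the 2 sets of double-mutant P90 glands, beside 475 to 13435 CPM in the control P90 glands.

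No share of cells passed a test between the stages among the named classes other than ductal Egf+-like and fibroblast-like cells, whose shares are set by genes under test. The smallest p of a two-sided exact permutation test, adjusted over all 11 named classes, was 0.537. Luminal Dcpp1+-like cells had the smallest unadjusted p (exact p = 0.0606), at 0 to 25.4 (median 13.1)% of cells at P40 and 0 to 8.57 (median 0.046)% at P90. Acinar-like cells made up 21.4 to 54.7 (median 34.3)% of cells at P90 and 28.1 to 73.6 (median 45.4)% at P40, ductal Klk1+-like cells 5.19 to 29.4 (median 9.47)% and 6.63 to 21.9 (median 11)%, and immune-like cells 1.4 to 12.5 (median 9.05)% and 1.26 to 10.4 (median 2.36)%. With 6 glands against 6 the smallest p that the test allows is 0.00216. When every cell was thinned to 500 UMIs before summing, 37 other standard names were higher and 20 lower, and 7 of 16 granular duct products passed.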

How the data were processed

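The authors aligned the Drop-seq reads with STAR through Drop-seq tools v1.12, used GENCODE vM7 gene models (mm10, extended by Cre and EYFP sequences) and deposited, for barcodes above the knee, unnormalized UMI counts of all genes. Counts were summed per gland over barcodes with at least 100 genes and under 15% mt- UMIs. Genes that passed filterByExpr were tested with edgeR 4.0.16 (quasi-likelihood, TMM, sex and stage), with a stage term per sex for the sexes and with batch added in double-mutant glands. On simulated data (9099 genes, 200 of them changed) the test recovered 44% of genes changed 2-fold and 90% of genes changed 4-fold. The simulation held no sex or batch effect and changed genes in random directions, so these rates need not hold for the glands. Cells (10743) were clustered with scanpy 1.11.5 and leidenalg 0.10.2 (2000 variable genes, 30 components, 20 neighbors, resolution 0.7), and UMIs of a type were summed where a gland held at least 10 of its cells. Doublets were not called. A cluster stayed unnamed where another class's markers led it. Members and gene lists were chosen with earlier results of these data known. Named genes came from the 12 highest and 12 lowest called standard names, up to 4 per list and 5 per type and direction, and a few preset ones, whereas Klk1b26, Klk1b27, Ren1, Crisp3, Klk1, Rps19 and Rpl35 were added after their values were seen. A further granular duct product was left out and is not reported here. Alternatives were DESeq2 1.42.0, other scalings and filters, thinned counts, batch sums, and glands left out. Library totals and batches left out were chosen after seeing the data.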

Additional observations from a re-analysis of the deposited data

Results flagged for a closer look

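Of 168 groups of 6 glands examined, 15 (8.93%) held a gland far from the other 5 by Dixon's gap test. Its limit flags about 1 in 20 groups when values are independent and normally distributed. These groups mixed the sexes, were not put on a log scale and held genes that vary together. Their share can therefore not be set against that rate. At P90 the highest gland stood apart for 5 mucous, demilune or early products. Dcpp1 reached 61497 CPM (next 1554), Dcpp3 17146 CPM (next 767), Bpifa2 5745 CPM (next 169), Muc19 228 CPM (next 23.8) and Cst10 1.96 CPM (next 0.400). Luminal Dcpp1+-like cells made up 8.57% of cells in 1 P90 gland and at most 0.122% in the other P90 glands. Single P90 glands were also apart for Dnaja1 (428 CPM, next 169), Hspe1 (353 CPM, next 184), Ces1d (128 CPM, next 38.0), Ceacam1 (92.0 CPM, next 39.4), Ceacam2 (31.3 CPM, next 12.2) and Cgref1 (12.4 CPM, next 3.20). Single P40 glands were apart for Jchain (139.6 CPM, next 51.3), Dbp (6.06 CPM, next 2.04) and Slpi (1.37 CPM, next 0.292). No cause of these values was tested.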

How the results depend on the processing

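Of 54 called genes followed across settings for the whole gland 37 passed with any single gland left out, and of 38 calls followed within cell types 30 did. Of the same 54, 53 passed with DESeq2, 25 without batch 14 and 15 with UMIs summed per batch. With standard names only, 37 of the 53 that were tested passed. With every cell thinned to 500 UMIs, 15 of the 35 that were tested passed. Among called genes Sult1e1 changed direction, to -0.78 without batch 8. Among genes that were not called, Klk1 took log2 fold changes of 0.077 (stricter cell limits), 0.26 (summed per batch), 0.25 (no sex covariate), 0.13 (library totals) and 0.22 (without batch 8), and Smgc -0.32 without batch 14. Counts of calls moved much more, and the cause was not tested where a setting kept all glands and UMIs. Other standard names higher (185) came to 449 with no filter, 13 summed per batch, 118 with no sex covariate, 37 with thinned cells, 423 with library totals (median of all genes at 0.35), and 626, 113 and 52 without batch 12, 13 and 14. Standard names lower (145) came in the same order to 508, 6, 83, 20, 14, 614, 75 and 29, and to 241 with DESeq2 (median of all genes at 0.21), 93 with thinned glands, 48 with standard names only and 91 without batch 7. Pseudogene symbols higher (121) came to 191, 26, 73 and 36 under the first 4 settings and 65 without batch 14, and clone or predicted names higher (536) to 1074, 169, 317 and 132, to 930 with DESeq2 and 328 without batch 14. Granular duct products (15) came to 0 summed per batch, 1 with no sex covariate and 7 with thinned cells. Heat shock genes (5) came to 1, 3 and 1 under those settings, 3 with thinned glands or without batch 8, 2 with standard names only or without batch 7, 13 or 14, and 10 with library totals. The sex-by-stage term called 54 with no filter. Females (148 standard names) had 557 with no filter, 41 with standard names only and 11 with a replicate block. Males (154) had 551, 37 and 21 in that order, 251 with DESeq2, 74 with thinned glands and 50 with library totals. With no filter, DESeq2 and thinned sums the types gave 27, 25 and 0 calls (basal-like, 9), 133, 108 and 21 (ductal Klk1+-like, 66), 52, 37 and 4 (ductal progenitor-like, 19), 13, 8 and 3 (endothelial-like, 1) and 58, 49 and 0 (immune-like, 24, and 12 with at least 20 cells). Acinar-like cells (312) gave 555 with no filter and 174 with thinned sums. Double-mutant glands gave 35 with no filter and 50 with DESeq2.

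With any gland left out, other standard names higher ranged from 113 to 296, standard names lower from 75 to 317, pseudogene symbols from 109 to 144 and heat shock genes from 2 to 6. Females ranged from 16 to 397, males from 5 to 233, basal-like cells from 1 to 22, ductal Klk1+-like cells from 50 to 101, ductal progenitor-like cells from 5 to 44, endothelial-like cells from 0 to 6 and immune-like cells from 1 to 45, these 7 all highest without P40 replicate 1. Differences in share, P90 minus P40 in percentage points, ranged from -0.00029 to 0.955 for T/NK-like, -1.01 to 4.04 for ductal Klk1+-like and -0.195 to 0.473 for myoepithelial-like cells. Same-numbered glands had correlations of their deviations of -0.06 to 0.50, and 1 of 6 correlated best with its own number, so the numbers did not pair the glands. The replicate block gave 14, 4 and 15 calls in basal-like, ductal progenitor-like and endothelial-like cells.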
